A study of Mus musculus with 4 samples.

Results

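The 8 genes Slc19a1, Folr1, Fpgs, Ggh, Shmt1, Mthfd1, Atic and Tyms act in the uptake, retention and use of folate and of the antifolate drugs built to resemble it. They were taken by gene symbol, with every probe listed under these symbols in the deposited table, and are 8 of 24561 genes with a symbol on the array. The array read them with 12 of its 55681 probes, since Slc19a1, Folr1, Shmt1 and Atic had 2 probes each and the other 4 genes had 1. On each of the 4 arrays all 12 probes lay well above background, with no spot flagged or saturated.

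L1210 cells are an established line of mouse lymphocytic leukemia, of DBA background. Per the labels, L1210 cells were infected with lentivirus, GFP+ cells were sorted, and total RNA was taken from 4 stable lines. L1210-control is the control of the transfection, and the 3 variant lines L1210-Fbxw11a, -Fbxw11c and -Fbxw11d each carry 1 form of Fbxw11. Fbxw11 is an F-box protein, the part of an SCF ubiquitin ligase that binds the substrate. Fbxw11a is the full-length form, Fbxw11c lacks exon 2, and Fbxw11d lacks exons 2 and 3. All lines carry GFP and grew in the same medium, and the sources used here do not say what the control virus carried besides GFP or whether a line arose from 1 clone. Each line was read by 1 array, so no difference between lines had a replicate check and no test was possible. The array of L1210-Fbxw11d lay alone on slide 2 while the other 3 lay on slide 1, so its slide and its variant cannot be told apart. The question of these comparisons was whether the RNA of folate genes differed between cells given an Fbxw11 variant and control cells.

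Folate carries single carbon units for the synthesis of purines and of thymidylate, on which DNA synthesis depends. Reduced folates and methotrexate enter cells mainly through the carrier Slc19a1, Fpgs traps them by adding glutamates, and Ggh removes these again. L1210 cells are a classical system for the study of antifolate transport and resistance.

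With each array scaled to its 75th percentile, no member differed by 2-fold or more from the control line in any variant line. RNA of whole cultures was read, so fewer cells of a kind and less RNA per cell cannot be told apart. The count was 0 of 12 probes in the Fbxw11a line, where 5.13% of 37677 probes passed 2-fold, 0 of 12 in the Fbxw11c line, where 4.47% of 37031 did, and 0 of 12 in the Fbxw11d line, where 6.97% of 39090 did. Between the variant lines the count was also 0 of 12, beside 4.92% of probes for the Fbxw11a line against the Fbxw11c line, 7.33% for the Fbxw11a line against the Fbxw11d line and 5.26% for the Fbxw11c line against the Fbxw11d line. At these shares a count of 0 among 12 probes does not set the members apart. At 1.5-fold, 2 of 12 probes passed in the Fbxw11a line (background 12.7%), 1 of 12 in the Fbxw11c line (11.4%) and 0 of 12 in the Fbxw11d line (17.6%). The 3 probe values past 1.5-fold all came from Folr1, whose brighter probe was higher than the control in the Fbxw11a and Fbxw11c lines and whose dimmer probe was lower in the Fbxw11a line. With normexp background correction 0 of 12 probes passed 1.5-fold in each line. The Fbxw11d line depended on the scaling, and the whole array with it. Scaled on the E1A spike-in RNA, or without scaling, 91.8% and 92.4% of all genes well above background on every array lay above the control, and 2 of the 12 member probes, those of Mthfd1 and the brighter of Atic, passed 2-fold, beside 12.1% and 13.6% of all probes. At 1.5-fold 7 of 12 passed under either, beside 50.8% and 54.3% of all probes, and 2 of 12 under median centring, beside 21.1%.

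Signals are scanner intensities scaled to the control array, and a log2 ratio of 1 is a 2-fold difference. The error given with a ratio is the scanner software's error of single spots, about 0.20 on the log2 scale for bright probes. It holds no variation between cultures.

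**Figure D1:**
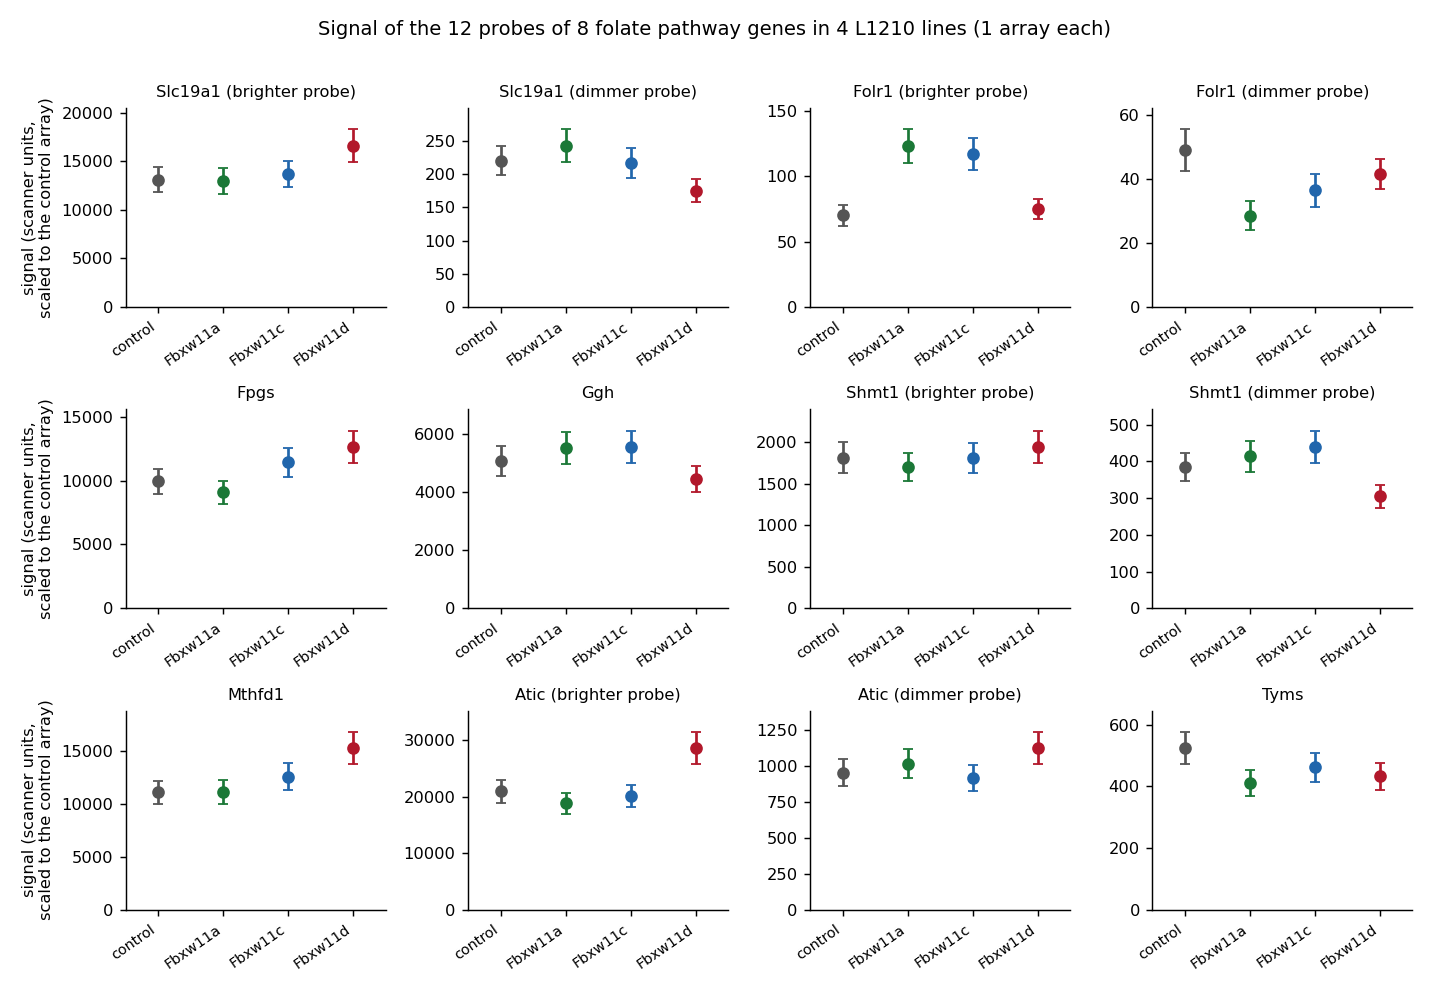
Scaled signal (scanner intensity, each axis from 0) of the 12 probes in the control, Fbxw11a, Fbxw11c and Fbxw11d lines, with 1 array per line and bars for the scanner error. The brighter Folr1 probe sits at 123 and 117 in the Fbxw11a and Fbxw11c lines against 70.1 in the control, and the Mthfd1 and brighter Atic probes are highest in the Fbxw11d line.

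Uptake was read through Slc19a1 and Folr1. Slc19a1 is the reduced folate carrier. Its brighter probe (chr10:76512874-76512933 of mm9, plus strand) gave a signal of 13118 in the control line, 12977 in the Fbxw11a line, 13702 in the Fbxw11c line and 16613 in the Fbxw11d line. The first 3 lay within the scanner error of each other and the Fbxw11d line lay above them, with a log2 ratio to control of 0.34 ± 0.20. The dimmer probe (chr10:76501259-76501318) gave 221, 243, 217 and 175 in the same order of lines, and here the Fbxw11d line was the lowest, at a log2 ratio of -0.33 ± 0.21. For the carrier in the Fbxw11d line, the direction therefore depended on the probe, and it was positive for both probes under E1A scaling or no scaling.

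Folr1, folate receptor alpha, is a membrane-anchored protein that takes up folate by endocytosis. Its brighter probe (chr7:109006846-109006905, minus strand) gave 70.1 in the control line, 123 in the Fbxw11a line, 117 in the Fbxw11c line and 74.9 in the Fbxw11d line. The log2 ratios were 0.81 ± 0.22 in the Fbxw11a line, 0.74 ± 0.22 in the Fbxw11c line and 0.10 ± 0.22 in the Fbxw11d line, so the first 2 stood apart from the control and from the Fbxw11d line by more than 2 scanner errors. The dimmer probe (chr7:109016972-109017031) gave 48.9, 28.4, 36.4 and 41.4. It went the other way: its log2 ratios were -0.78 ± 0.30, -0.42 ± 0.28 and -0.24 ± 0.25, of which the value in the Fbxw11a line passed 2 scanner errors. With normexp background correction the brighter probe's ratios were 0.47, 0.35 and, with the sign turned, -0.23 in the Fbxw11a, Fbxw11c and Fbxw11d lines, of which that in the Fbxw11c line no longer passed 2 scanner errors, and the dimmer probe's ratio in the Fbxw11a line was -0.33. The lowest signals well above background were 14.5 to 18.1 over the 4 arrays, and the 2 Folr1 probes lay in the 2 dimmest of 5 brightness classes. Among probes printed on 10 spots and of like brightness, the spread between spots of 1 array gave an SD of the ratio of 0.28 for the brighter probe and 0.53 for the dimmer one in the Fbxw11a line. No direction can be stated for Folr1 as a gene from these probes.

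In all 4 genes with 2 probes, the probes differed in sign in at least 1 line, and how common this was over the array was not counted. For Atic it held only in the Fbxw11a line, at -0.15 and 0.09, both within the scanner error. Under E1A scaling both Atic values were negative in that line, at -0.28 and -0.03. For the 3 genes whose probes the scanner files list under the same transcript, so that the positions can be compared, the first 30 of the 60 designed bases are shown 5′ to 3′, as the scanner files list them, to tell the positions apart. The number is the base of the listed transcript at which the probe starts.
Slc19a1, base 2044: caggccactgcgagtctgggttgtctattg
Slc19a1, base 300: cagttgcgtcctggggaaagcttcatcaca
Folr1, base 1225: gtggtggggctctgacagcctctttaataa
Folr1, base 257: ctgggctttttcctgtgctccgagtaggtg
Shmt1, base 1584: ttgacatcccgaggacttttggaagaagac
Shmt1, base 394: atgccaccctgtgggcttctcatgagaaga

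In each of these pairs the brighter probe started further from the transcript's start than the dimmer one. The distance between the pair was 1744 bases of transcript for Slc19a1, 968 for Folr1 and 1190 for Shmt1, and 11615, 10126 and 17354 bases of genome. The scanner files list both Folr1 probes under the same transcript, whereas the deposited table lists the brighter one under transcript variant 1 and the dimmer one under variant 2.

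In the Fbxw11d line the 3′ probe minus the 5′ probe was 0.67 ± 0.29 for Slc19a1, 0.34 ± 0.33 for Folr1 and 0.43 ± 0.29 for Shmt1, on the log2 ratio scale. The difference for Slc19a1 passed 2 scanner errors, though not with the authors' normalized values. For Atic, whose probes are listed under different transcripts, the probe with the higher start base minus the other was -0.21 ± 0.29 in this line. In the Fbxw11a line the differences for Slc19a1, Folr1 and Shmt1 were -0.15, 1.59 and -0.20, and in the Fbxw11c line they were 0.09, 1.16 and -0.20. Of the 4 genes with 2 probes, Folr1 was the only one whose gap passed 2 scanner errors in those lines, and in the Fbxw11c line it did not with normexp background correction.

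The same difference was taken over 2174 transcripts with probes at least 500 bases apart and well above background on all 4 arrays, a comparison chosen after the member values were seen. The median 3′ minus 5′ difference was -0.01 in the Fbxw11a line, -0.01 in the Fbxw11c line and 0.09 in the Fbxw11d line, and 48.3%, 48.7% and 59.9% of transcripts were above 0. With the authors' normalized values the median in the Fbxw11d line was 0.05, with 56.2% above 0. The 3′ probe was the brighter on the control array for 64.3% of the transcripts, and the part of position and brightness in the member values was not tested. The Slc19a1 gap in the Fbxw11d line was matched or exceeded in size by 10.4% of these transcripts (18.2% with the authors' values) and the Shmt1 gap by 24.1% (32.2%). The Folr1 gap was matched by 0.552% in the Fbxw11a line and 1.10% in the Fbxw11c line. The shares were not matched for brightness. Both Folr1 probes lay in the 2 dimmest of 5 brightness classes. The median log2 range over the 4 arrays was 0.69 and 0.56 in these, beside 0.24 in the brightest. With the authors' normalized values the gaps in the Fbxw11d line were 0.49 for Slc19a1 and 0.34 for Shmt1, and the Folr1 gaps in the Fbxw11a and Fbxw11c lines were 1.65 and 1.16. With normexp background correction the Folr1 gaps narrowed to 0.81 and 0.57, for which no share was taken.

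**Figure D2:**
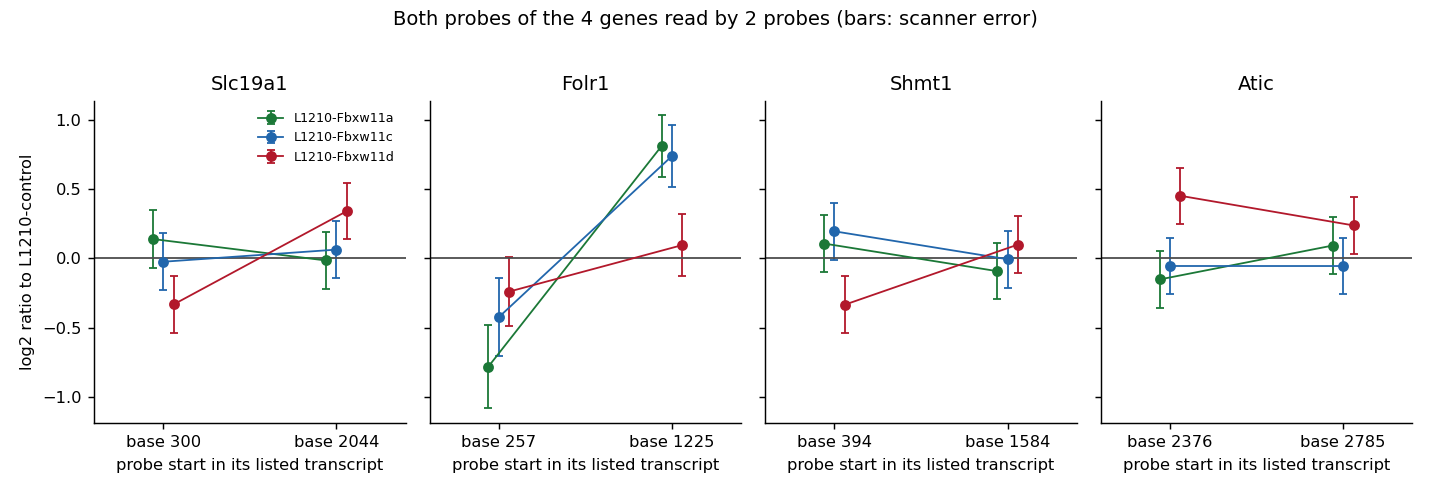
Log2 ratio to the control line (vertical axis) of both probes of Slc19a1, Folr1, Shmt1 and Atic, ordered by the base at which each probe starts in its listed transcript, with bars for the scanner error and 1 colour per variant line. Lines that slope up read higher at the 3′ probe, as in the Fbxw11d line for Slc19a1 (0.67 between the probes) and in the Fbxw11a line for Folr1 (1.59), and the 2 Atic probes are listed under different transcripts.

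Retention was read through Fpgs and Ggh, with 1 probe each. Fpgs, folylpolyglutamate synthase, adds the glutamate chain that holds folates and methotrexate in the cell. Its probe (chr2:32538162-32538221, minus strand) gave 9926 in the control line, 9090 in the Fbxw11a line, 11411 in the Fbxw11c line and 12638 in the Fbxw11d line. The order from low to high was Fbxw11a, control, Fbxw11c and Fbxw11d, and no neighbours in it differed beyond the scanner error. Against the control, the log2 ratios were -0.13 ± 0.20, 0.20 ± 0.20 and 0.35 ± 0.20.

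Ggh, gamma-glutamyl hydrolase, removes the glutamates in the lysosome. Its probe (chr4:19993114-19993173, plus strand) gave 5079 in the control line, 5546 in the Fbxw11a line, 5573 in the Fbxw11c line and 4466 in the Fbxw11d line. The log2 ratios of 0.13 ± 0.20, 0.13 ± 0.20 and -0.19 ± 0.20 were all within the scanner error. In the Fbxw11d line the Fpgs and Ggh values lay on opposite sides of the control, although the Ggh value turned positive under median centring, E1A scaling or no scaling.

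The interconversion of one-carbon units was read through Shmt1 and Mthfd1. Shmt1 is the cytosolic serine hydroxymethyltransferase, which moves a carbon from serine to tetrahydrofolate. Its brighter probe (chr11:60603099-60603158, minus strand) gave 1816 in the control line, 1703 in the Fbxw11a line, 1808 in the Fbxw11c line and 1946 in the Fbxw11d line, a log2 range of 0.19 over the 4 arrays. Of all probes well above background on all 4 arrays, 84.4% had a wider range. The dimmer probe (chr11:60620453-60620512) gave 384, 414, 439.8 and 305, with the Fbxw11d line lowest at a log2 ratio of -0.33 ± 0.20, which turned positive under E1A scaling or no scaling.

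Mthfd1 is the trifunctional cytosolic enzyme that interconverts the methylene, methenyl and formyl forms of tetrahydrofolate. Its probe (chr12:77418622-77418681, plus strand) gave 11127 in the control line, 11140.4 in the Fbxw11a line, 12609 in the Fbxw11c line and 15319 in the Fbxw11d line. The control and the Fbxw11a line differed by 0.00 on the log2 scale, and the Fbxw11d line was 1.38-fold above the control, at 0.46 ± 0.20.

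Atic catalyses the last 2 steps of purine synthesis, the first of which takes a formyl group from folate, and it is a target of polyglutamated methotrexate. Its brighter probe (chr1:71625743-71625802, plus strand) gave 20912 in the control line, 18813 in the Fbxw11a line, 20124 in the Fbxw11c line and 28597 in the Fbxw11d line. Only the Fbxw11d line stood apart beyond the scanner error, 1.37-fold above the control at 0.45 ± 0.20. The dimmer probe (chr1:71626146-71626205), listed under another transcript, gave 954, 1017, 918 and 1125, and here too the Fbxw11d line was the highest, at 0.24 ± 0.20. Both Atic probes were thus above the control in the Fbxw11d line under all 7 alternative settings of scaling and background. Of these settings, keeping flagged spots could not change a member value. The brighter Atic probe and Mthfd1 had the highest ratios of the members in this line.

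Tyms, thymidylate synthase, makes thymidylate with methylene-tetrahydrofolate and is the target of fluoropyrimidines and of antifolates such as raltitrexed. Its probe (chr5:30385578-30385637, minus strand) gave 525 in the control line, 411 in the Fbxw11a line, 462 in the Fbxw11c line and 433 in the Fbxw11d line. The control was the highest of the 4 lines, with log2 ratios of -0.35 ± 0.20, -0.18 ± 0.20 and -0.28 ± 0.20, or 1.28-, 1.14- and 1.21-fold below it. Tyms was the only member whose every probe lay below the control in all 3 lines, but the 3 ratios share the control array, neighbours in the order did not differ beyond the scanner error, and the value in the Fbxw11d line turned positive under E1A scaling and, at 0.34, without scaling.

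**Figure D3:**
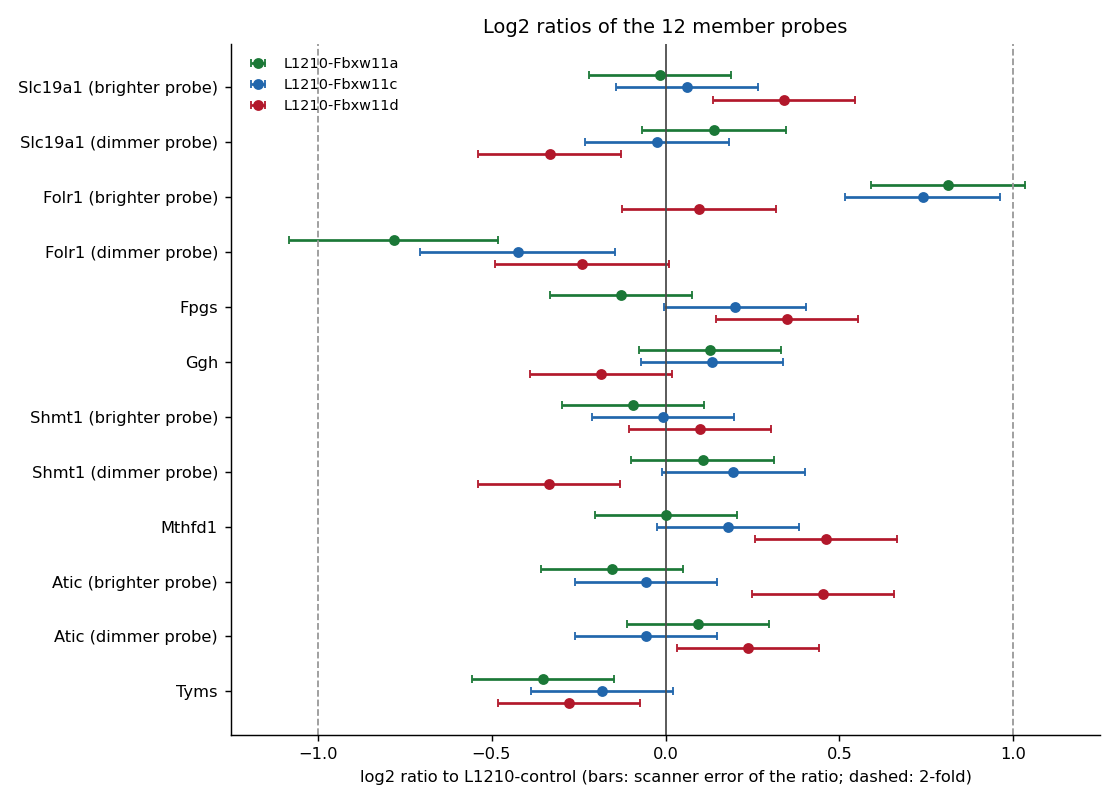
Log2 ratio to the control line (horizontal axis) of the 12 member probes in the 3 variant lines, scaled on the 75th percentile, with bars for the scanner error of the ratio and dashed lines at 2-fold. All points lie within 2-fold, those of Folr1 come nearest to it at 0.81 and -0.78, and the negative values in the Fbxw11d line turn positive under E1A scaling or no scaling.

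Over the 12 probes, 36 pairs of lines were neighbours in the order of signals, and 7 of these differed by more than the scanner error. The Fbxw11d line was the highest line for 6 probes and the lowest for 3, the Fbxw11a line was the lowest for 6, and the control was the highest for 2. Under E1A scaling the Fbxw11d line was the highest for 11 of 12 probes and the lowest for 0. Past 2 scanner errors of the ratio to control were 2 probes in the Fbxw11a line and 1 in the Fbxw11c line, all of Folr1, and 2 in the Fbxw11d line, those of Mthfd1 and the brighter of Atic. Neither of the last 2 passed under quantile normalization or with the authors' values, and 7 probes passed in this line under E1A scaling. By the narrower spread between spots more probes passed in the Fbxw11c and Fbxw11d lines. Past 2 SDs of it were 2 probes in the Fbxw11a line, the brighter of Folr1 and that of Tyms. In the Fbxw11c line 3 passed, the brighter of Folr1 and those of Fpgs and Mthfd1, and in the Fbxw11d line 8 passed. The counts of neighbours, of highest and lowest lines and of probes past 2 scanner errors or 2 such SDs were not taken over all probes. They therefore do not set the members apart from the array.

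With the probe of highest mean signal for each gene, the median log2 ratio of the 8 members was -0.05 in the Fbxw11a line, 0.10 in the Fbxw11c line and 0.22 in the Fbxw11d line. The same median over all genes was 0.01, 0.02 and 0.04. Where the probes of a gene were averaged, the members' median was 0.004 in the Fbxw11a line and turned to -0.034 in the Fbxw11d line, and it was 0.11 in the Fbxw11c line. In size without sign, the members' median ratio was 0.13, 0.16 and 0.31, and that of all genes was 0.15, 0.15 and 0.22. In the Fbxw11d line, 6 of 8 genes were above the control by their brightest probe, with Ggh and Tyms below it, beside 55.6% of all genes. Of the 12 probes 7 were above it, and of the 8 genes 4 were by the average of their probes.

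Signal and scaling moved with these values. In the Fbxw11d line the median ratio of all probes went from -0.16 in the dimmest of 5 brightness classes of equal size to 0.05 in the brightest class, which held 5 of the 12 member probes. The spike-in RNA E1A, added in a known amount, was read by 8 probes. After scaling to the 75th percentile, it lay at -0.59 on the log2 scale against the control array in the Fbxw11d line. In the Fbxw11a and Fbxw11c lines it lay at 0.13 and 0.15. The 75th percentile itself was 954 on the Fbxw11d array and 620 on the control array. E1A scaling and no scaling gave near values in the Fbxw11d line, with members' medians of 0.81 and 0.84. Under E1A scaling the median of all genes in the Fbxw11d line was 0.61 and that of the members 0.81, and all 12 member probes were above the control. With the brightest probe of each gene, the members minus all genes came to 0.18 to 0.22 in this line over the 8 settings of scaling and background, 0.03 to 0.09 in the Fbxw11c line, where the members' own median turned to -0.06 under E1A scaling, and -0.06 to -0.04 in the Fbxw11a line. With the mean of the probes of each gene, it turned to -0.07 in the Fbxw11d line.

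**Figure D4:**
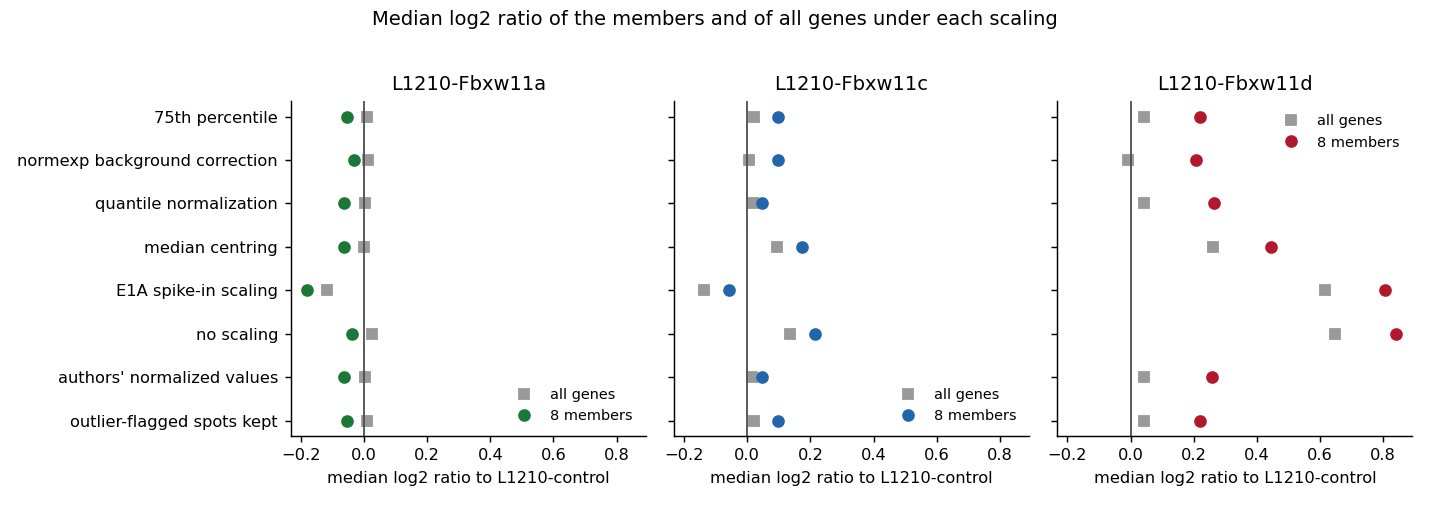
Median log2 ratio to the control line (horizontal axis) of the 8 members (circles) and of all genes (grey squares) under the scaling reported and 7 alternatives, 1 panel per variant line. In the Fbxw11d line both medians move together, from 0.22 and 0.04 to 0.81 and 0.61 under E1A scaling, and in the Fbxw11c line the members turn below 0 under E1A scaling.

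Other genes of folate metabolism were counted from 6 lists with 37 genes. Of these, 34 read well above background on every array and 3 on none: Folr2, a folate receptor of myeloid cells, Abcc2, an efflux pump, and Amt, of the glycine cleavage system. No gene of the lists was past 2-fold in any variant line as scaled here, although Abcg2 passed it in the Fbxw11c line without scaling and with the authors' values, and in the Fbxw11d line without scaling and under E1A scaling, while over all genes 2.47% were higher and 2.06% lower in the Fbxw11a line, 1.63% and 2.29% in the Fbxw11c line, and 1.11% and 4.96% in the Fbxw11d line. The median log2 ratio of the 34 genes was -0.07, 0.01 and 0.00 in the 3 lines.

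The transport list held 8 genes above background, with medians of -0.07, -0.02 and 0.03. The efflux pump Abcc1 gave 5222 in the control line, 4211 in the Fbxw11a line, 4319 in the Fbxw11c line and 5179.6 in the Fbxw11d line, so it was lower in the first 2 variant lines by 0.31 and 0.27 on the log2 scale with an error of 0.20. The efflux pump Abcg2, named after its value was seen, gave 80.8, 70.2, 153 and 123 and was 1.89-fold above the control in the Fbxw11c line and 1.52-fold above it in the Fbxw11d line. The mitochondrial folate carrier Slc25a32 gave 3015, 3017, 3463 and 3828, and like Mthfd1 it was highest in the Fbxw11d line, at 0.34 ± 0.20.

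A list of 5 further cytosolic folate enzymes, which leaves out the members Shmt1 and Mthfd1, had medians of -0.18, -0.26 and -0.17 beside 0.01, 0.02 and 0.04 for all genes, although in the Fbxw11d line the median turned to 0.41 under E1A scaling, 0.45 without scaling and 0.05 under median centring. All 5 genes were below the control in each line, beside 48.9%, 46.3% and 44.2% of all genes well above background on every array, but in the Fbxw11c and Fbxw11d lines 1 of 5 was above it under quantile normalization and with the authors' values, 2 and 3 of 5 under median centring, and 2 and 4 of 5 without scaling. Mthfd1, also cytosolic, lay above the control in the Fbxw11c and Fbxw11d lines. The 3 ratios share the control array. Mthfs, which returns 5-formyl-tetrahydrofolate to the active pool, gave 1991 in the control line, 1542 in the Fbxw11a line, 1636 in the Fbxw11c line and 1767 in the Fbxw11d line.

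In the mitochondrial list, 8 of 9 genes were above background, 4 above and 4 below the control in each line, with medians of -0.01, -0.02 and -0.07. All 8 were above it in the Fbxw11d line under E1A scaling or no scaling, and 6 of 8 below it under quantile normalization and with the authors' values. Gcsh, the carrier protein of glycine cleavage, gave 44166, 47876, 47715 and 44207 in the control, Fbxw11a, Fbxw11c and Fbxw11d lines. Shmt2, the mitochondrial counterpart of Shmt1, gave 12150 in the control line, 10362 in the Fbxw11a line, 10625 in the Fbxw11c line and 11005 in the Fbxw11d line. The control was the highest line for Shmt2, with ratios of -0.23, -0.19 and -0.14 against an error of 0.20.

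Remethylation, purine synthesis and thymidylate supply held 4, 5 and 4 genes, all above background. Their medians were -0.06, 0.02 and 0.12 for remethylation, 0.04, 0.11 and 0.04 (-0.04 under quantile normalization) for purine synthesis, and -0.07, 0.01 and 0.24 for thymidylate supply, in the Fbxw11a, Fbxw11c and Fbxw11d lines. Mat2a and Mtr, which make S-adenosylmethionine and methionine, had ratios between -0.01 and 0.24. Gart and Paics, of purine synthesis, had ratios between -0.18 and 0.06. Tk1, thymidine kinase of the salvage route, gave 21289, 21369, 21668 and 26124, and Dtymk, which phosphorylates thymidylate, gave 18176, 17182, 18210 and 21011. Both were highest in the Fbxw11d line, at 0.30 and 0.21, and 4 of 4 genes of thymidylate supply lay above the control there (3 of 4 under quantile normalization), beside 55.6% of all genes.

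Tyms is expressed mainly around S phase, so 15 S phase genes were set beside it, all above background and none past 2-fold. Their median log2 ratio was -0.12 in the Fbxw11a line, -0.07 in the Fbxw11c line and -0.05 in the Fbxw11d line, with 10, 12 and 11 of 15 below the control, beside the shares of all genes given with the cytosolic enzymes. Above the control were 8 of 15 in the Fbxw11c line under median centring or no scaling, beside 67.2% and 73.4% of all genes, and in the Fbxw11d line 14 of 15 under median centring, beside 78.4%, and 15 of 15 under E1A scaling or no scaling, beside 91.8% and 92.4%. Tyms lay below each of these medians.

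All of these lists moved with the array in the Fbxw11d line. Under E1A scaling, where the median of all genes was 0.61, the medians were 0.62 for transport, 0.41 for the cytosolic list, 0.52 for the mitochondrial list, 0.71 for remethylation, 0.62 for purine synthesis, 0.83 for thymidylate supply and 0.54 for the S phase genes.

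**Figure D5:**
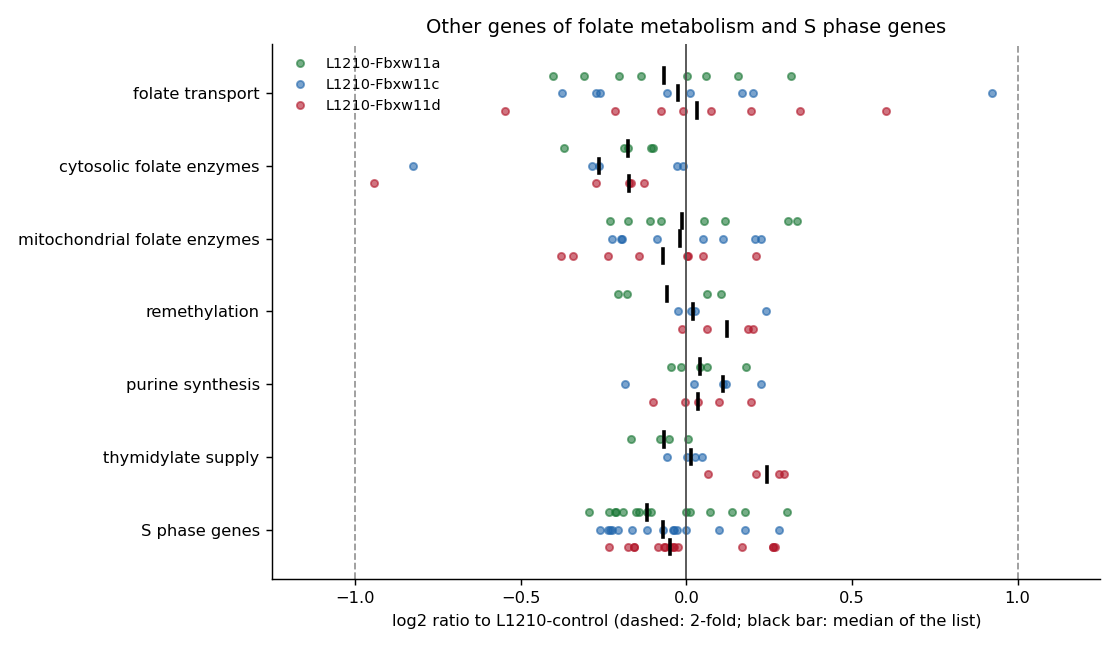
Log2 ratio to the control line (horizontal axis) of the genes of the 6 folate lists and of 15 S phase genes in the 3 variant lines, scaled on the 75th percentile, 1 point per gene above background and a black bar for the list's median. No point passes 2-fold on this scale, and the 5 listed cytosolic enzymes lie below 0 in all 3 lines, which turns for 4 of 5 in the Fbxw11d line under E1A scaling and for up to 2 of 5 in the Fbxw11c line under other scalings.

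Of the 16249 genes with a probe well above background on all 4 arrays, those whose 3 ratios lay nearest to those of the brighter Folr1 probe were Mmrn2, Gm4975 and Cyp2s1, at Euclidean distances of 0.08, 0.15 and 0.15. Mmrn2 gave 59.6 in the control line, 101 in the Fbxw11a line, 104 in the Fbxw11c line and 62.9 in the Fbxw11d line. For the brighter Atic probe they were Gng10, Shoc2 and Rab44, at distances of 0.03, 0.04 and 0.04. The likeness was taken over 3 ratios that share the control array, and it is a description.

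Of 10 B lineage markers on the array 6 read well above background on every array, and Cd79b, Igll1, Ebf1 and Rag1 did on none. Of 7 T lineage markers 5 did, with Cd3d and Cd3g on none, of 6 macrophage markers 5, with Lyz2 on none, and of 5 fibroblast markers 2. Markers past 2-fold included Zap70 in the Fbxw11c line (-1.10) and Csf1r in the Fbxw11d line (-1.12), and their part in the folate values was not tested. The array read Fbxw11 itself by 2 probes, with log2 ratios of 0.31 and 0.21 in the Fbxw11a line, 0.27 and 0.22 in the Fbxw11c line, and 0.03 and 0.18 in the Fbxw11d line, so at 2-fold it gave no check of the labels. Other measurements of Fbxw11 in these lines were not used here.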

How the data were processed

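RNA of 4 L1210 lines was hybridised to Agilent 1-colour mouse arrays, 1 per line. The authors deposited each array's Feature Extraction (9.1, per the labels) output, with a background-corrected signal intensity per spot, and 1 table of log2 values that the authors normalized across the arrays by a method not given in the sources used here, with gene symbols and mm9 coordinates. From the intensity, log2 of the processed signal minus the array's 75th percentile over gene spots (620 to 954) was used, on the control array's scale. Spots flagged as outliers were left out. A probe with a share of 0.5 or more of its spots flagged well above background was taken as such. A gene was read by the probe of highest mean signal. Members and lists were chosen with earlier results of these data known. Named from the lists were the 2 genes of each folate list with the highest mean signal and the genes past 2-fold, other genes being named after their values were seen. Some of the genes so chosen are not reported here. Calls were tested on simulated data. Alternatives were normexp (limma 3.58.1, offset 50, R 4.3.3), quantile, median, E1A or no scaling, the authors' values, flagged spots kept, other probe rules and thresholds of 1.5 and 3 (Python 3.11.15, numpy 2.4.6, pandas 2.3.3). The files list no exon or UTR for the probes.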

Additional observations from a re-analysis of the deposited data

How the results depend on the processing

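At a threshold of 1.5-fold, 2 member probes passed in L1210-Fbxw11a and 1 in L1210-Fbxw11c, all of Folr1. With normexp background correction these counts fell to 0. In L1210-Fbxw11d, 2 probes passed 2-fold under E1A scaling and 2 without scaling, beside 12.1% and 13.6% of all probes. The members' median in this line was 0.44 under median centring, 0.81 under E1A scaling, 0.84 without scaling and -0.034 where both probes of a gene were averaged. The median of all genes moved to 0.26, 0.61 and 0.65 under the first 3 of these, to -0.12 in L1210-Fbxw11a and -0.14 in L1210-Fbxw11c under E1A scaling, and to 0.13 in L1210-Fbxw11c without scaling. The cause was not tested. Of 252 log2 ratios by probe under 7 alternatives, 213 moved by less than the scanner error and 39 by more, 36 of them in L1210-Fbxw11d. Of the 213, 36 came from keeping flagged spots, which could not move a member value because no member spot was flagged. No paired analysis was possible because each line has 1 array. The number of arrays limits the precision, and the dimmer Folr1 probe lies in the dimmest of 5 brightness classes.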
